A study of Mus musculus with 18 samples.

Results

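The 154 genes described here lie on the distal part of mouse chromosome 17, in gene order from Crisp2 to 2700099C18Rik. They were chosen by position, with a start at or beyond 40 Mb of chromosome 17 in the GRCm38 annotation, and by level, with a median log2 value of at least 4 over all 18 arrays. The array carries 307 genes of this stretch among 15780 named genes, and 136 of them had a median under 4. Of the 171 at or above that level, 17 were left out by name, namely Pgk2, Tcte1, Adgre1 and members of large families such as zinc finger, ribosomal, kinesin and collagen genes. The members are 151 protein-coding genes, 2 long noncoding RNAs and 1 transcribed pseudogene. Ttc7 (median 4.02), Efhb (4.33) and Plin3 (4.46) lay just inside the level limit, and Txndc2 (3.98), Aars2 (3.96) and Sult6b1 (3.91) just outside. The measured level chose the members, so the absence of silent genes among them is no result.

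The study measured RNA in mouse spermatocytes and testes on biotin-labelled expression arrays, and its title asks about meiosis when more autosomal chromatin is left unsynapsed. Pre-mid-pachytene spermatocytes, sorted by flow cytometry from adult males aged 2 months, came from t12+/+T43 males (n = 3), Ttf+/+T43H males (n = 3) and fertile C57BL/10J males (n = 2). Mid-late-pachytene spermatocytes were sorted from C57BL/10J males of the same age (n = 2). Whole testes without the tunica, from males aged 15 days, came from t12+/+T43 (n = 3), Ttf+/+T43H (n = 3) and C57BL/6J (n = 2). All carriers were on a C57BL/10J background and share a translocation, T43 in the labels of one line and T43H in those of the other. The testis controls were C57BL/6J, so strain background and carrier status cannot be told apart in the testes. The design text calls the replicates biological.

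T43H is a reciprocal translocation between chromosomes 16 and 17, and t12 is a t haplotype, a variant of proximal chromosome 17 that carries inversions and pairs poorly with a normal homologue. In meiosis, chromatin that fails to synapse at the pachytene stage is silenced, and the X and Y chromosomes, which synapse over a short region only, are silenced in every normal spermatocyte. Pachytene is also the stage when spermatocytes switch on many genes of the sperm tail and acrosome, while genes of early meiosis are switched off.

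Values are the deposited log2 values, and a difference is the first-named group minus the second with limma's standard error (SE). A difference is called where limma's p stayed under 0.05 after Benjamini-Hochberg adjustment across every gene of the fit. Genes entered a fit with log2 values of 4 or more on 2 or more of its arrays. In the sorted cells 151 members passed and Satb1, Ltbp1 and Ttc7 did not. In the testes 148 passed and Crip3, Efhb, Stap2, Nrtn, Mllt1 and Pcare did not. Enpp5 passed in the sorted cells only through t12+/+T43 arrays and Tmem63b only through mid-late C57BL/10J arrays, and Spats1 passed in the testes only through the C57BL/6J arrays, so any difference that favours those groups was built into the choice. Stpg4 reached 4 in the testes only on both C57BL/6J arrays and the highest Ttf+/+T43H array. The filter therefore favoured its falls against C57BL/6J. RNA from whole samples cannot show whether fewer cells of a type or less RNA per cell lies behind a lower value.

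Replicates of a group correlated at 0.963 to 0.996 in sorted cells and 0.998 to 0.999 in testes. Spermatocyte markers (8 on the array) averaged 13.56 to 14.42 in t12+/+T43, 13.44 to 14.16 in Ttf+/+T43H, 10.48 to 10.49 in mid-late and 13.98 to 14.10 in pre-mid C57BL/10J cells, with Dmc1 under 4 in the mid-late cells. The pre-mid populations also differed in other cell types. The 10 spermatid markers averaged 6.37 to 8.29 in t12+/+T43, 10.28 to 10.71 in Ttf+/+T43H and 11.73 to 12.33 in C57BL/10J arrays. The 8 Sertoli markers averaged 6.51 to 7.38, 6.07 to 6.43 and 5.43 to 5.54 in the same order, and the 5 Leydig markers 8.03 to 10.61, 6.93 to 8.31 and 3.998 to 5.80. Ttf+/+T43H replicate 2 stood apart from its group, with spermatogonium markers at 9.87 (7.35 and 6.84 on the others) and chromosome 17 before 40 Mb at 0.18 relative to other autosomes (-0.35 and -0.51 on the others). t12+/+T43 replicate 3 had X-linked genes 0.13 above other autosomes (-0.68 and -0.52 on the others) and Leydig markers at 10.61 (8.03 and 8.12). t12+/+T43 replicate 2 had spermatid markers at 8.29 (6.40 and 6.37), and correlated at 0.980 and 0.975 with its group, whose other arrays correlated at 0.992. Counts that rest on these 3 arrays are also given without them. In the testes 8 of 10 spermatid markers, among them Prm1, Prm2, Tnp1 and Tnp2, were under 4 in every group. The signal of the 3′ end of Gapdh exceeded that of the 5′ end by 3.44 to 3.98 in t12+/+T43 and 3.26 to 3.91 in Ttf+/+T43H cells on the log2 scale. In C57BL/10J this excess was 2.86 to 2.93 in pre-mid and 2.51 to 3.39 in mid-late cells, and in testes at most 0.14. For actin it was 2.49 to 2.51 in pre-mid and 3.38 to 3.51 in mid-late C57BL/10J cells. In carrier cells the actin excess was 3.13 to 3.99 (t12+/+T43) and 3.06 to 4.41 (Ttf+/+T43H), and in testes 1.11 to 1.37. The part of RNA quality in the members' differences was not tested.

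Along the chromosome, the members nearest to the proximal part had a lower mean level in both carriers than in controls, in both tissues. So did the stretch next to them and the members farthest along. In that neighbouring stretch the sorted carrier arrays overlapped the controls. With the median over members, neither the nearest nor the farthest members were lower in testes. The neighbouring stretch had a higher median in both carriers in sorted cells. The chromosome was divided into 5 stretches in gene order, namely Crisp2 to Rftn1 (47 members), Dazl to Gpr108 (35), Fbxl17 to C030034I22Rik (16), Tgif1 to Rmdn2 (27) and Galm to 2700099C18Rik (29), which begin at 40, 50, 60, 70 and 80 Mb. The level of a stretch on an array is the mean of all its members, tested or not, minus the mean of tested genes on autosomes other than 16 and 17. No test was made of these levels, because they are scores over chosen members.

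In pre-mid-pachytene cells the Crisp2 to Rftn1 level was 0.03, -0.04 and 0.02 in t12+/+T43, against 0.19 and 0.23 in C57BL/10J. In Ttf+/+T43H it was -0.09, 0.06 and -0.15. The carrier arrays did not overlap the 2 control arrays, with mean differences of -0.21 for t12+/+T43 and -0.27 for Ttf+/+T43H. In testes the level was -0.67, -0.71 and -0.67 in t12+/+T43 and -0.63, -0.65 and -0.66 in Ttf+/+T43H, against -0.42 and -0.43 in C57BL/6J. The testis differences were -0.26 for t12+/+T43 and -0.22 for Ttf+/+T43H. The SD between the arrays of a testis group was at most 0.02, which does not measure the spread over members. Genes of chromosome 17 before 40 Mb, given for comparison, differed by -0.53 (t12+/+T43) and -0.29 (Ttf+/+T43H) in sorted cells and by -0.30 and -0.26 in testes. The sorted Ttf+/+T43H arrays overlapped the controls there. Replicate 2 stood at 0.18 and the others at -0.35 and -0.51, against 0.05 and 0.08 in C57BL/10J.

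The size of this first-stretch difference depended on which members carried it. Without its testis and sperm genes (Crisp2, Spats1, Rsph9, Mea1 and Ubr2) it was -0.078 for t12+/+T43 and -0.21 for Ttf+/+T43H in sorted cells, and -0.16 and -0.17 in testes. When the level was taken as the median over members in place of the mean, the sorted differences were -0.055 and -0.10, and the testis differences turned to 0.014 and 0.020, while the stage difference of 0.14 became 0.80 (0.03 without those genes). The median of the members' own differences was -0.31 and -0.21 in sorted cells and -0.18 and -0.15 in testes, and 32 of 47 (t12+/+T43) and 32 of 47 (Ttf+/+T43H) tested members had a negative difference in sorted cells. In testes 32 of 46 (t12+/+T43) and 40 of 46 (Ttf+/+T43H) were negative. The median choice and the leave-out of the list were chosen after seeing the data.

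Of the next 3 stretches, the first had negative differences of the mean level throughout, and the others went both ways. Dazl to Gpr108 differed by -0.11 in t12+/+T43 and -0.04 in Ttf+/+T43H sorted cells, with overlapping arrays. In testes it differed by -0.08 and -0.05, with no overlap. With the members' median its sorted differences were 0.11 and 0.34. Fbxl17 to C030034I22Rik differed by 0.08 and -0.14 in sorted cells and by 0.02 and -0.09 in testes. Its arrays lay apart from the controls only in Ttf+/+T43H testes. Tgif1 to Rmdn2 had a higher mean level in carrier testes, by 0.07 in t12+/+T43 and 0.09 in Ttf+/+T43H, whose arrays did not overlap the controls. Its sorted differences of 0.13 and -0.13 came with overlapping arrays. With the members' median its Ttf+/+T43H testis difference was 0.003. Galm to 2700099C18Rik differed by -0.08 and -0.17 in sorted cells and by -0.12 and -0.09 in testes, with no overlap between carriers and controls in any of the 4 comparisons. With the members' median the Galm to 2700099C18Rik differences were -0.29 and -0.58 in sorted cells and 0.18 and 0.08 in testes. Without its testis and sperm genes the t12+/+T43 ones were 0.03 in both tissues. The Ttf+/+T43H ones were then -0.21 in sorted cells and -0.04 in testes. The median also changed the order of the stretches: in sorted cells Fbxl17 to C030034I22Rik differed by 0.55 in t12+/+T43 and Dazl to Gpr108 by 0.34 in Ttf+/+T43H, while the first stretch had medians of -0.06 and -0.10. No ranking of the stretches is drawn from these levels. In mid-late against pre-mid C57BL/10J cells the stretches moved apart from each other, by 0.14, 0.23, -0.44, -0.24 and 0.02 in the order given above, and with the median by 0.80, 0.89, 0.24, 0.60 and -0.23.

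**Figure D1:**
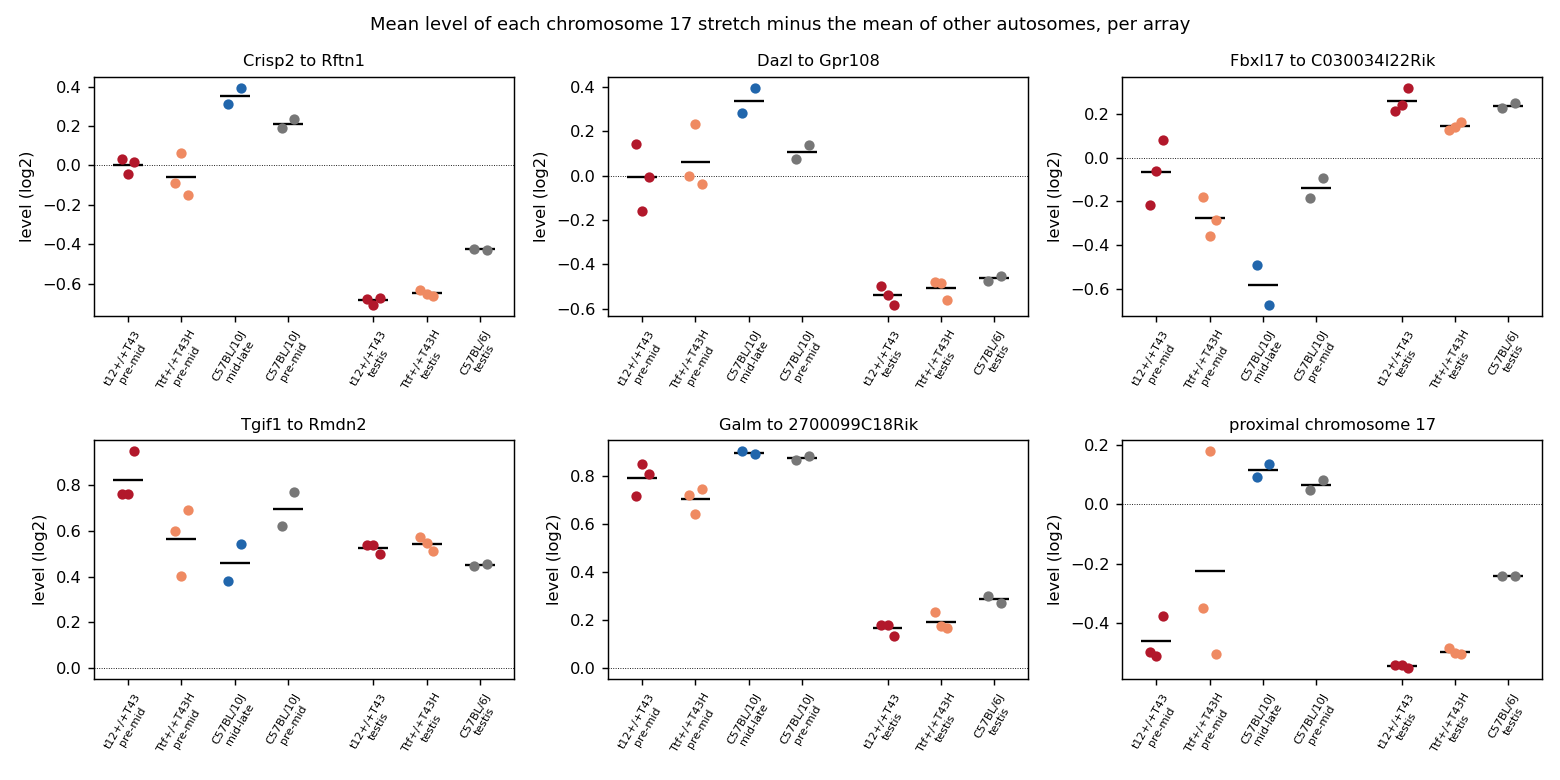
Level of the 5 distal stretches and of proximal chromosome 17 on each array (points, log2 units, relative to autosomes other than 16 and 17), with group means as bars; the left 4 groups are sorted cells and the right 3 are testes. In the Crisp2 to Rftn1 panel all carrier arrays lie below the controls of their tissue (differences -0.21 and -0.27 in sorted cells, -0.26 and -0.22 in testes).

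Stage itself moved more members than any carrier status. In mid-late against pre-mid-pachytene C57BL/10J cells, 40 of 151 tested members rose, where 26.2% of all 9666 genes tested did, and 41 fell, where 30.3% of all genes did. The members' shares were 26.5% and 27.2%, near the background. The median difference of the members was 0.05, against -0.11 over all genes. With each array centred on its median the split became 50 higher and 34 lower, and leaving out single arrays gave 62 to 67 called members in all. Other cell types moved with stage too: 4 of 10 spermatid, 4 of 5 tested Sertoli and 4 of 5 spermatogonium markers fell in mid-late cells, and their part was not tested.

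Stpg4, Pcare, Spats1 and Catsperd led the 8 largest called rises. Stpg4, which encodes a protein with sperm-tail repeats, stood at 12.43 and 12.49 in mid-late cells and at 7.40 and 6.93 in pre-mid cells, a rise of 5.30 ± 1.02 (SE, adjusted p = 0.00203). Pcare, known in photoreceptors as an actin regulator of the cilium, rose by 5.16 ± 0.33 (adjusted p = 3.96e-06), and Spats1, a spermatogenesis-associated gene, by 4.30 ± 0.46 (adjusted p = 6.52e-05). Catsperd, an accessory subunit of the sperm calcium channel CatSper, rose by 4.20 ± 0.36 (adjusted p = 1.99e-05). Efhb, an EF-hand protein, rose by 4.09, Tmem232 by 3.61, Gtf2a1l, the germ-cell form of the large TFIIA subunit, by 3.23 and the mitochondrial AlkB homologue Alkbh7 by 3.23. In all of these the mid-late arrays lay above both pre-mid arrays, which the rule for naming them required. The calls held whichever array was left out.

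Dazl and Ubr2 led the 8 largest called falls. Dazl, an RNA-binding protein of germ cells, stood at 8.87 and 8.62 in mid-late cells and at 14.20 and 14.36 in pre-mid cells, a fall of 5.54 ± 0.32 on the log2 scale (adjusted p = 2.46e-06). Ubr2, an N-recognin ubiquitin ligase required in male meiosis, stood at 2.65 and 2.78 against 8.14 and 8.18 and fell by 5.44 ± 0.43 (adjusted p = 1.33e-05). The glutaminyl cyclase gene Qpct fell by 4.86, the S1-domain gene Srbd1 by 4.69, the cullin Cul7 by 4.55, the mitochondrial protease Lonp1 by 4.40, the acyltransferase Lclat1 by 3.87 and Plcl2 by 3.79. Mid-late values of Ubr2 and Qpct lay under 4, near the background of the array, so the size of those falls is only a rough one. Lonp1 was uneven within the mid-late cells, at 4.24 and 6.96, against 9.96 and 10.05 in pre-mid cells.

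**Figure D2:**
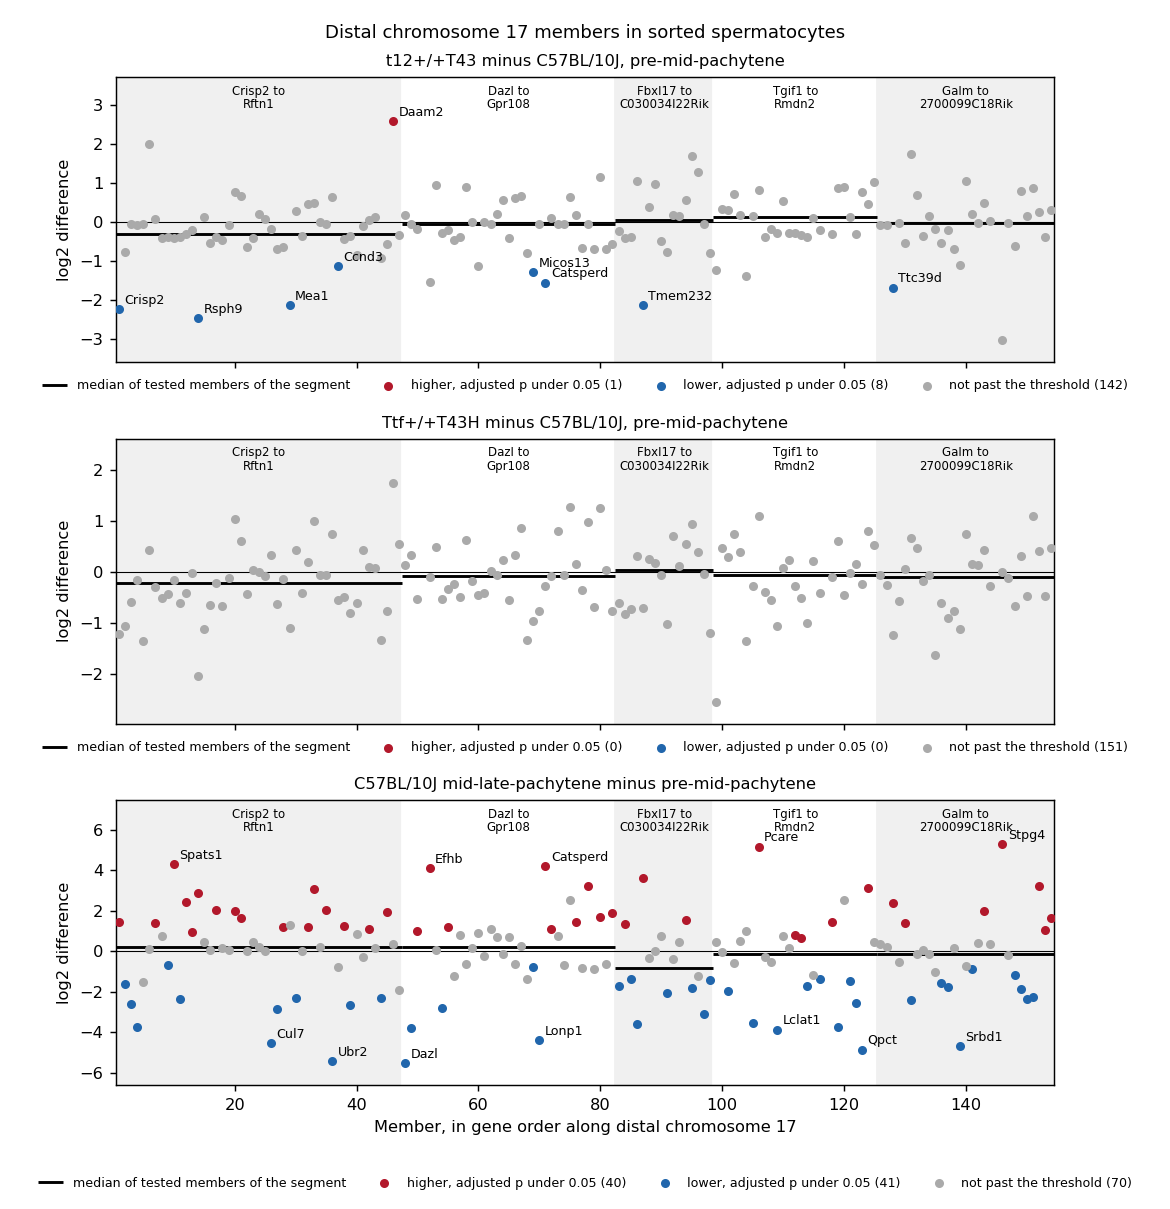
Difference of every tested member (points, log2 units) against its place in gene order, for t12+/+T43 and Ttf+/+T43H minus C57BL/10J pre-mid cells and for C57BL/10J mid-late minus pre-mid cells; colours mark the calls and black bars the median of each stretch. The stage panel holds 40 higher and 41 lower members, the t12+/+T43 panel 1 and 8, and the Ttf+/+T43H panel none.

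In juvenile testes, 8 of 10 tested testis and sperm genes of distal 17 fell in t12+/+T43 against C57BL/6J and 4 of 10 in Ttf+/+T43H. Both counts include Spats1, which passed the testis filter only through the C57BL/6J arrays, so its falls were built into the choice. They also include Stpg4, whose falls that filter favoured. Of 148 tested members, 23 fell in t12+/+T43 testes, where 11.3% of all 9134 genes tested did, and 11 rose, where 10.5% did. The members' shares were 15.5% and 7.43%. In Ttf+/+T43H testes 11 members (7.43%) fell, where 4.70% of all genes did, and 5 (3.38%) rose, where 3.86% did. Both comparisons use the same 2 control arrays. Without C57BL/6J replicate 1 or 2, the called members were 15 and 21 for t12+/+T43 and 4 and 3 for Ttf+/+T43H, and without Ttf+/+T43H replicate 2 they were 8.

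The calls were not spread evenly along the chromosome. In the Crisp2 to Rftn1 stretch 15 of 46 tested members (32.6%) fell and 2 rose in t12+/+T43, and beyond it 8 of 102 fell and 9 rose. In Ttf+/+T43H 9 of 46 (19.6%) fell and 0 rose in the first stretch, and 2 of 102 fell and 5 rose beyond it. All 5 rises lay in the Tgif1 to Rmdn2 stretch. Spats1, whose falls were built into the filter, is among both the 15 and the 9 falls of the first stretch. Stpg4, whose falls the filter favoured, is among the falls beyond it in both carriers. On chromosome 17 before 40 Mb, 101 of 242 genes with a median of at least 4 (41.7%) fell in t12+/+T43 and 72 (29.8%) in Ttf+/+T43H, and on autosomes other than 16 and 17 the shares were 11.0% and 3.85%. These shares are descriptions, and no test was made between them.

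**Figure D3:**
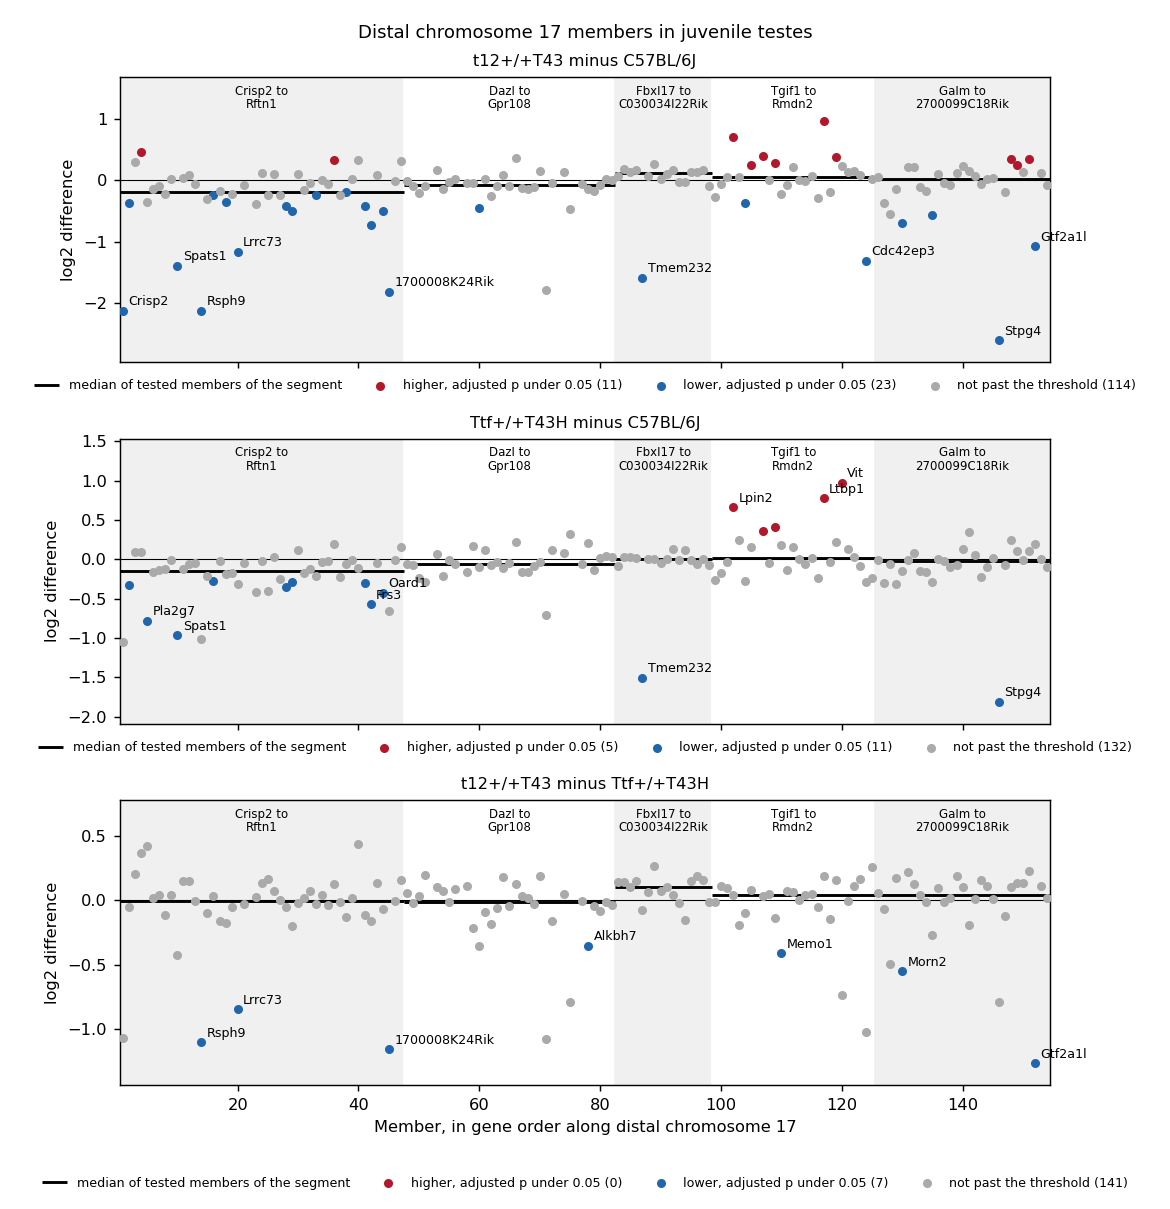
Difference of every tested member in juvenile testes (points, log2 units) against its place in gene order, for t12+/+T43 minus C57BL/6J, Ttf+/+T43H minus C57BL/6J and t12+/+T43 minus Ttf+/+T43H; colours mark the calls and black bars the median of each stretch. Lower calls gather in the Crisp2 to Rftn1 stretch (15 and 9 of 46 against C57BL/6J), and the 5 higher calls of Ttf+/+T43H lie in Tgif1 to Rmdn2. Both counts of lower calls include Spats1, which passed the testis filter only through C57BL/6J arrays.

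Of 23 listed testis and sperm genes, 20 were on the array and 11 were members, and 10 of those were tested in the testes. In t12+/+T43 against C57BL/6J, 8 fell and 1 rose, with a median difference of -1.23, where the median over all genes was 0.02. In Ttf+/+T43H 4 fell and 0 rose, with a median of -0.62, where all genes had a median of 0.00. The list was drawn up with earlier results of these data known, so its direction is no independent evidence.

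Crisp2, a cysteine-rich protein of the acrosome and sperm tail, stood at 9.29, 8.82 and 8.42 in t12+/+T43 testes and at 10.32, 9.94 and 9.49 in Ttf+/+T43H testes, against 11.17 and 10.75 in C57BL/6J. The 3 groups did not overlap. It fell by 2.12 ± 0.31 on the log2 scale in t12+/+T43 (adjusted p = 0.00471), and its difference of -1.05 ± 0.31 in Ttf+/+T43H was not called (adjusted p = 0.0865). Rsph9, a head protein of the radial spokes in cilia and sperm tails, gave 3.61, 3.49 and 3.29 in t12+/+T43 and 5.01, 4.55 and 4.15 in Ttf+/+T43H, against 5.88 and 5.28 in C57BL/6J. Again the groups stood in separate ranges, and the t12+/+T43 arrays lay near the background of the array. The fall was 2.12 ± 0.27 in t12+/+T43 (adjusted p = 0.00277), and the Ttf+/+T43H difference of -1.01 ± 0.27 was not called (adjusted p = 0.0636).

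Tmem232, a transmembrane protein linked to the sperm flagellum in mice, was lower in both carriers. It stood at 5.42, 5.73 and 5.48 in t12+/+T43 and at 5.99, 5.75 and 5.13 in Ttf+/+T43H, against 7.31 and 6.95 in C57BL/6J. The carriers overlapped each other and both lay below the controls, with differences of -1.59 ± 0.25 (adjusted p = 0.00588) and -1.51 ± 0.25 (adjusted p = 0.0133). Stpg4 stood at 3.18, 2.72 and 2.74 in t12+/+T43 and at 4.35, 3.39 and 3.26 in Ttf+/+T43H, against 5.88 and 5.08 in C57BL/6J. Most carrier arrays were under 4, so its called differences of -2.60 (adjusted p = 0.00428) and -1.81 (adjusted p = 0.0284) are rough sizes. Stpg4 needed its C57BL/6J arrays to pass the testis filter, so these falls were favoured by the choice. Spats1 stood at 3.14, 3.27 and 3.22 in t12+/+T43 and 3.77, 3.57 and 3.58 in Ttf+/+T43H, against 4.83 and 4.37.

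Tmem232 and Rsph9 (4 comparisons each) and Stpg4 and Spats1 (3 each, with the largest differences) were called most often of all members. They are shown here as the most often called, each higher in mid-late cells and lower in t12+/+T43 testes. The testis filter passed Spats1 through its C57BL/6J arrays alone, so its 2 testis calls lend no weight to that choice. Those of Stpg4, which needed its C57BL/6J arrays to pass, lend none either. The RefSeq promoters run from 250 bases before to 50 bases after the start, in GRCm38.p6, at chr17:65510008-65510307 (Tmem232), chr17:46144151-46144450 (Rsph9), chr17:87427692-87427991 (Stpg4) and chr17:45474889-45475188 (Spats1), all on the minus strand. Capitals mark matches on either strand to TGACGT, the core of the cyclic AMP response element, to AACNGNC, a MYB motif, and to GTTGCC, part of the X-box that RFX factors bind; the last was added after the sequences had been seen.
Tmem232: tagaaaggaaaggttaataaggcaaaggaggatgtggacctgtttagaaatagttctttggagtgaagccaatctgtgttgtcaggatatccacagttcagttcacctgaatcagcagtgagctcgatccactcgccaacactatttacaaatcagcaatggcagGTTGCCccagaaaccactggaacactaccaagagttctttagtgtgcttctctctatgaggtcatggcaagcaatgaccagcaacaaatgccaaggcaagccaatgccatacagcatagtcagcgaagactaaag
Rsph9: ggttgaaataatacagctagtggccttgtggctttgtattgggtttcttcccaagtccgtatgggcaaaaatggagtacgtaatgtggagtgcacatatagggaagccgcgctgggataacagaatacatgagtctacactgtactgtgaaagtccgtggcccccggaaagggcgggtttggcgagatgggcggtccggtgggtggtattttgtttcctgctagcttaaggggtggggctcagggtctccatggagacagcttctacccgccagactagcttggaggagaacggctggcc
Stpg4: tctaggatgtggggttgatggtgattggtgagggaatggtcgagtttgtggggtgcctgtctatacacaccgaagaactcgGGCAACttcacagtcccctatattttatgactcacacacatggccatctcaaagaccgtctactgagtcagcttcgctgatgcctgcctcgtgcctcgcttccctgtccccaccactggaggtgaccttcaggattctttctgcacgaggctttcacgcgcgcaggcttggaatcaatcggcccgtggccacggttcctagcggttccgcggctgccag
Spats1: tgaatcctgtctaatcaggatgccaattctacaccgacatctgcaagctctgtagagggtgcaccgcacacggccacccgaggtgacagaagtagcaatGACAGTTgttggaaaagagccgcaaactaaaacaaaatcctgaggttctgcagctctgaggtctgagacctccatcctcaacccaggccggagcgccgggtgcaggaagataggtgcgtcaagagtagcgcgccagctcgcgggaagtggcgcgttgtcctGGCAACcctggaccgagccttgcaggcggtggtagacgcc

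GTTGCC had 1 match each in the Tmem232, Stpg4 and Spats1 windows, AACNGNC had 1 in that of Spats1, and Rsph9 held none of the 3 motifs. For scale, TGACGT was in 16.3% of 190 promoter windows of 134 members and in 7.51% of all 32851 mouse windows, AACNGNC in 33.2% and 32.8%, and GTTGCC in 16.8% and 12.5%. The motifs share no letters by overlap in the capitals shown. A match describes these letters only.

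The other listed testis and sperm genes had smaller differences in t12+/+T43 testes. Gtf2a1l stood at 8.31, 7.93 and 7.41 in t12+/+T43 and at 9.47, 9.13 and 8.85 in Ttf+/+T43H, against 9.08 and 8.83 in C57BL/6J. Here the Ttf+/+T43H arrays overlapped the controls and only t12+/+T43 stood below them, by 1.07 ± 0.27 (adjusted p = 0.0322). Mea1, male-enhanced antigen 1, fell by 0.49 ± 0.06 in t12+/+T43 (adjusted p = 0.00285) and by 0.29 ± 0.06 in Ttf+/+T43H (adjusted p = 0.0351). Morn2, a MORN-repeat gene, fell by 0.70 in t12+/+T43 and had an uncalled difference of -0.15 in Ttf+/+T43H. Ubr2 went the other way, at 8.19, 8.16 and 8.10 in t12+/+T43 against 7.83 and 7.82 in C57BL/6J, a rise of 0.32 ± 0.07 (adjusted p = 0.0147). Fsd1 differed by 0.03 and -0.06 and was not called, and Efhb was near 2 on every testis array and was not tested. Catsperd, which was not on that list, stood at 4.13, 4.23 and 2.52 in t12+/+T43 and 5.25, 5.19 and 3.68 in Ttf+/+T43H, against 5.66 and 5.17, and its difference of -1.79 ± 0.64 in t12+/+T43 was not called (adjusted p = 0.0889).

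Other members of the first stretch fell in both carriers by smaller amounts. Frs3, an adaptor of fibroblast growth factor receptors, fell by 0.73 ± 0.07 in t12+/+T43 (adjusted p = 0.00114) and 0.57 ± 0.07 in Ttf+/+T43H (adjusted p = 0.00555). Oard1, an ADP-ribose glycohydrolase, fell by 0.49 and 0.42, the kelch-domain gene Klhdc3 by 0.41 and 0.36, Tomm6 of the mitochondrial import pore by 0.42 and 0.30, Cenpq of the centromere by 0.37 and 0.32 and the GTP-binding protein Gtpbp2 by 0.24 and 0.28. In each of these genes all carrier arrays lay below both controls. Pla2g7, a phospholipase that degrades platelet-activating factor, fell by 0.78 ± 0.14 in Ttf+/+T43H (adjusted p = 0.0192), with -0.35 in t12+/+T43 not called. Called in t12+/+T43 but not in Ttf+/+T43H, 1700008K24Rik fell by 1.81 ± 0.28 and Lrrc73, a leucine-rich repeat gene, by 1.16 ± 0.17 (adjusted p = 0.00502). Polr1c and Bysl likewise fell in t12+/+T43 alone, by 0.36 and 0.19. Farther along, the Cdc42 effector Cdc42ep3 fell by 1.31, the dynein-2 subunit Dync2li1 by 0.56 and the Cdk2 activator Spdya by 0.38, all in t12+/+T43.

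The rises came mainly from the Tgif1 to Rmdn2 stretch. Lpin2, a phosphatidate phosphatase of lipid synthesis, stood at 7.41, 7.46 and 7.42 in t12+/+T43 and at 7.43, 7.37 and 7.37 in Ttf+/+T43H, against 6.67 and 6.79 in C57BL/6J. The carriers overlapped each other and lay above the controls by 0.70 ± 0.05 (adjusted p = 0.000424) and 0.66 ± 0.05 (adjusted p = 0.00073). Ltbp1, a binding protein of latent TGF-beta, stood at 9.03, 9.04 and 9.25 in t12+/+T43 and 8.89, 8.85 and 9.02 in Ttf+/+T43H, against 8.09 and 8.20 in C57BL/6J, with rises of 0.96 and 0.77 (adjusted p = 0.000838 and 0.00336). Clip4, a CAP-Gly protein of microtubule ends, rose by 0.40 and 0.37 and Lclat1 by 0.27 and 0.41. The matrix protein gene Vit rose by 0.98 ± 0.22 in Ttf+/+T43H (adjusted p = 0.0412) and had an uncalled difference of 0.24 in t12+/+T43. Cd2ap, Fez2, Epcam, Ppp1r21, Wdr43 and Msh6 rose in t12+/+T43 by 0.24 to 0.46. In pre-mid sorted cells, where the controls are C57BL/10J, Lpin2 differed by 0.73 ± 0.22 in t12+/+T43 (adjusted p = 0.0766) and 0.74 ± 0.22 in Ttf+/+T43H (adjusted p = 0.12), not called, with every carrier array above both controls.

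Markers of cell types and X-linked genes also differed in the same testes. Of 4 tested mid-late pachytene markers, 3 fell and 1 rose in t12+/+T43 and 2 fell in Ttf+/+T43H, while Ccna1 and Pou5f2 were under 4 in every group. The 8 Sertoli markers averaged 9.22 to 9.34 in t12+/+T43 and 9.12 to 9.25 in Ttf+/+T43H, against 9.17 in both C57BL/6J arrays, and 2 of 6 tested rose in t12+/+T43. Of 5 spermatogonium markers 2 rose in t12+/+T43, with means of 8.87 to 8.89 against 8.70. X-linked genes stood 0.34 to 0.41 above other autosomes in t12+/+T43 and 0.10 to 0.25 in Ttf+/+T43H, against 0.17 and 0.20 in C57BL/6J. The 5 Leydig markers averaged 4.99 to 7.60 and 4.41 to 7.56, against 7.43 to 8.21. Their part in the members' differences was not tested.

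**Figure D4:**
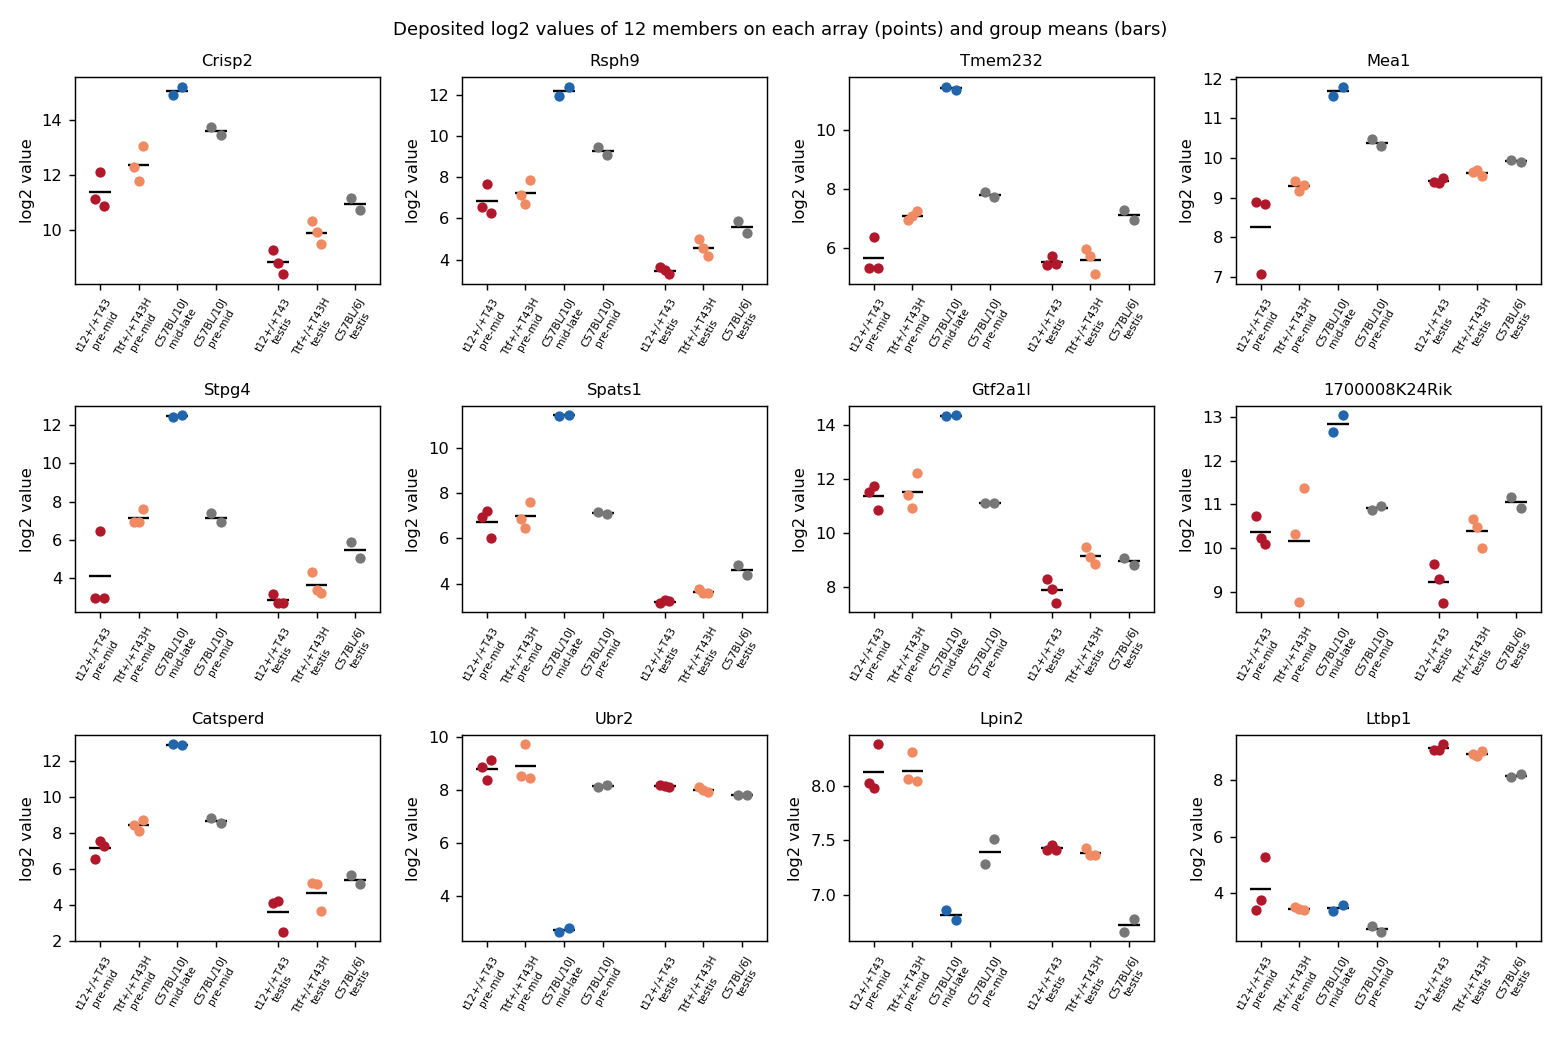
Deposited log2 values of 12 members on every array (points) with group means (bars); sorted cells are the left 4 groups and testes the right 3. Crisp2, Rsph9, Tmem232 and Mea1 lie lower in t12+/+T43 than in the controls of both tissues, most of the 12 lie highest in mid-late C57BL/10J cells, and Ubr2, Lpin2 and Ltbp1 do not.

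Set directly against Ttf+/+T43H testes, t12+/+T43 testes had 7 members called, all lower. Of 148 tested members these 7 fell, where 3.92% of all genes did, and 0 rose, where 1.07% did, so the members' share of 4.73% was near the background. Gtf2a1l fell by 1.27 ± 0.25 (adjusted p = 0.0398), 1700008K24Rik by 1.16 ± 0.25 and Rsph9 had a called difference of -1.10 ± 0.24 (adjusted p = 0.0479). Lrrc73 fell by 0.85, Morn2 by 0.55, Memo1, a regulator of cell motility, by 0.41 and Alkbh7 by 0.35. In each of the 7 the t12+/+T43 arrays lay below all Ttf+/+T43H arrays. Crisp2 had an uncalled difference of -1.07 ± 0.28 (adjusted p = 0.0688). None of the 7 calls held under every array left out: without Ttf+/+T43H replicate 1 or 2, or t12+/+T43 replicate 2 or 3, 0 members were called, without t12+/+T43 replicate 1 there were 4, and without Ttf+/+T43H replicate 3 there were 15. Quantile normalization gave 2 higher and 6 lower, and centring each array on its median 3 and 7.

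In pre-mid-pachytene sorted cells, 4 of the genes that fell in t12+/+T43 testes fell as well. The matching count over all genes is not given here, so these 4 are a description only. Of 151 tested members 8 fell in t12+/+T43 against C57BL/10J, where 5.83% of all genes did, and 1 rose, where 3.24% did. The members' shares were 5.30% and 0.662%, below those over all genes. Among genes with a median of at least 4 on autosomes other than 16 and 17, 2.73% fell and 3.55% rose. On chromosome 17 before 40 Mb 19.7% fell, in the Crisp2 to Rftn1 stretch 8.51% and beyond it 3.85%. No test was made between these shares. Rsph9 stood at 6.55, 7.68 and 6.25 in t12+/+T43 against 9.47 and 9.09 in C57BL/10J and fell by 2.45 ± 0.47 (adjusted p = 0.0145). Crisp2 stood at 11.15, 12.09 and 10.87 against 13.73 and 13.45 and fell by 2.22 ± 0.45 (adjusted p = 0.0172). In both genes the carrier arrays lay well below the controls, and t12+/+T43 replicate 2 was the highest carrier array.

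Tmem232 stood at 5.33, 6.38 and 5.35 in t12+/+T43 against 7.91 and 7.73 and fell by 2.13 ± 0.33 (adjusted p = 0.00592). Mea1 stood at 8.88, 7.06 and 8.84 against 10.47 and 10.30 and fell by 2.12 ± 0.50 (adjusted p = 0.0328). In these genes, too, no array overlapped the other group, and in Mea1 the second replicate was the lowest. The tetratricopeptide gene Ttc39d fell by 1.67, Catsperd by 1.55, Micos13, part of a mitochondrial crista complex, by 1.28 and cyclin D3 (Ccnd3) by 1.13. Daam2, a formin that organises actin, stood at 6.42, 5.55 and 7.76 against 3.80 and 4.16 and rose by 2.59 ± 0.62 (adjusted p = 0.0349). Stpg4 was uneven, at 2.98, 6.47 and 2.96 in t12+/+T43 against 7.40 and 6.93, and was not called (difference -3.03 ± 0.93, adjusted p = 0.0858). Crisp2, Rsph9, Tmem232 and Mea1 thus fell in t12+/+T43 in both tissues, where the arrays and the control strain differ. Their testis differences were -2.12, -2.12, -1.59 and -0.49 in that order, and that of Rsph9 is a rough size because its t12+/+T43 testis arrays were under 4.

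None of these 9 calls held under every array left out. Without C57BL/10J replicate 1 or 2 there were 0 and 1 called members, and without t12+/+T43 replicate 2 there were 17; without its replicate 3 there were 7. Spermatid markers moved with these calls: 9 of 10 fell in t12+/+T43 against C57BL/10J, while 4 of 5 tested Sertoli and 2 of 5 Leydig markers rose. Their part in the members' differences was not tested.

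In Ttf+/+T43H pre-mid cells no member passed. Limma called 0 of 151 against C57BL/10J, where 2.06% of all genes were called, and the smallest adjusted p was 0.0541. At an unadjusted p under 0.05 there were 31 members (20.5%), where 17.9% of all genes passed. C030034I22Rik (-1.20, adjusted p = 0.0541), Cenpq (-1.07 ± 0.23, adjusted p = 0.0545), Oard1 (-1.33, adjusted p = 0.0597) and Rsph9 (-2.04 ± 0.47, adjusted p = 0.0659) came nearest. Cenpq stood at 11.10, 10.78 and 10.95 in Ttf+/+T43H and 10.96, 11.33 and 11.48 in t12+/+T43, against 11.88 and 12.14 in C57BL/10J. Rsph9 stood at 7.14, 6.70 and 7.86 in Ttf+/+T43H. Both genes had every carrier array below the controls. Without Ttf+/+T43H replicate 2, 2 members fell.

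Between t12+/+T43 and Ttf+/+T43H pre-mid cells limma called 0 of 151 members, where 0.755% of all genes were called. At an unadjusted p under 0.05 there were 17 (11.3%), where 10.2% of all genes passed. Tmem232 had the smallest adjusted p, 0.0803, at 5.33, 6.38 and 5.35 in t12+/+T43 and 6.96, 7.10 and 7.27 in Ttf+/+T43H. Its difference was -1.42 ± 0.29, with no overlap between the groups. Catsperd (-1.28 ± 0.29, adjusted p = 0.11), Efhb (-1.44 ± 0.38, adjusted p = 0.165) and Stpg4 (-3.03 ± 0.83, adjusted p = 0.189) followed, also without overlap. Leaving out t12+/+T43 replicate 2 gave 4 called members, and leaving out t12+/+T43 replicate 3 or the second Ttf+/+T43H array gave 0. Of the 10 spermatid markers 5 fell in the same comparison, and their part was not tested.

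One fit of all 18 arrays tested whether the t12+/+T43 minus Ttf+/+T43H difference was the same size in sorted cells as in testes. Limma called 0 of 154 members, where 0.734% of 10623 genes were called, and 9 (5.84%) passed an unadjusted p under 0.05, where 7.64% of all genes did. Tmem232 (-1.34 ± 0.38, adjusted p = 0.182) and Efhb (-1.39 ± 0.41, adjusted p = 0.214) came nearest.

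Counts in the other lists of members are to be read beside the shares over all genes, 26.2% higher and 30.3% lower with stage, 10.5% and 11.3% in t12+/+T43 testes and 3.86% and 4.70% in Ttf+/+T43H testes. Of 14 cell division genes, Sgo1, the shugoshin that protects centromeric cohesion, fell by 2.81, Cenpq by 1.63, Cul7, Ppp2r5d, Ppm1b and Cdc5l also fell and the microtubule-severing Spast rose by 0.80 in mid-late C57BL/10J cells, 6 lower and 1 higher in all. In the testes 2 of 14 fell (Spdya and Cenpq) and 1 rose (Clip4) in t12+/+T43, and 1 fell and 1 rose in Ttf+/+T43H. Of 5 replication and repair genes, the mismatch-repair gene Msh6 fell by 1.86 and Fbxo11 by 2.34 with stage, Cdc5l fell and the helicase Ddx11 rose by 1.56, while Uhrf1 was not called. Of the 5, Msh6 rose in t12+/+T43 testes, by 0.24 ± 0.05 (adjusted p = 0.0193).

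Of 12 tested chromatin and transcription genes, the Mediator subunit Med20 fell by 2.63 and Mllt1 rose by 1.44 with stage, and 0 were called in any carrier comparison; their differences lay between -0.28 and 0.35 in t12+/+T43 testes and between -0.29 and 0.23 in Ttf+/+T43H testes. Of 9 RNA processing, ribosome assembly and translation genes, Wdr43 fell by 3.55, Rrp36 by 2.85 and Lrpprc by 1.55 with stage. Xpo5 rose by 2.05, Khsrp by 1.67 and Bysl by 1.26. Of 14 ubiquitin and trafficking genes 5 fell with stage, among them Ubr2, Cd2ap and Pja2, and Tbc1d5 rose. In t12+/+T43 testes Ubr2 and Cd2ap rose and Ubxn6, a cofactor of the p97 segregase, fell by 0.45. The 6 signalling genes had 0 calls in carriers, and with stage Socs5 rose by 1.99 and Fer by 1.35 while Prkd3 fell by 2.54 and Twsg1 by 2.06.

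The stage comparison and the testis comparisons share no array, so their calls can be set side by side. Among 145 members tested in both, 14 of the 23 that fell in t12+/+T43 against C57BL/6J testes (60.9%) had risen in mid-late against pre-mid cells, which is 37.8% of the 37 that rose with stage. They include Crisp2, Rsph9, Tmem232, Stpg4, Spats1, Gtf2a1l, Morn2, Lrrc73, Cdc42ep3 and 1700008K24Rik, and 2 of the 23 had fallen with stage. Of the 10 that rose in t12+/+T43 testes, 8 (80%) had fallen with stage, which is 19.5% of 41, and 0 had risen. In Ttf+/+T43H testes 5 of 11 falls (45.5%) were stage rises, which is 13.5% of the 37. Spats1, whose testis falls were built into the filter, and Stpg4, whose falls it favoured, are among both the 14 and the 5. Between the carriers, 6 of the 7 genes lower in t12+/+T43 testes (85.7%) were stage rises, 16.2% of the 37. Across the 145 members the stage and t12+/+T43 testis differences correlated at -0.56, a description over genes that share arrays and are not independent. The same overlap ran through the whole array. Over all 8187 genes tested in both, 436 of 988 that fell in t12+/+T43 testes (44.1%) were stage rises, 24.5% of 1776, and 473 of 858 that rose (55.1%) were stage falls, 17.2% of 2758. The corresponding shares of falls were 34.9% in Ttf+/+T43H and 57.1% between the carriers, and the correlation over all genes for t12+/+T43 was -0.34. Whether the members' shares differ from these was not tested.

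**Figure D5:**
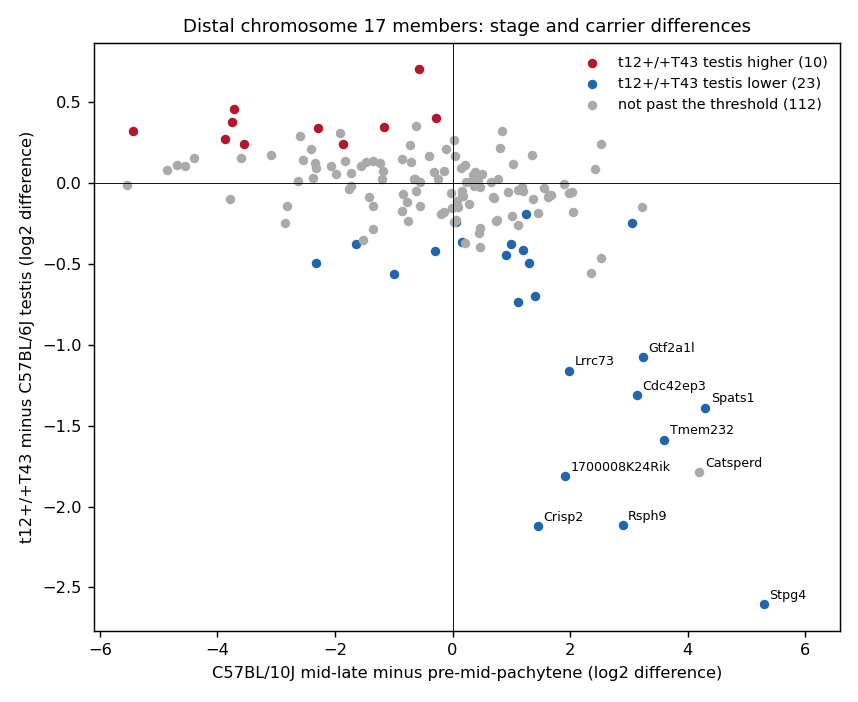
Difference between t12+/+T43 and C57BL/6J testes (vertical, log2 units) against the difference between C57BL/10J mid-late and pre-mid-pachytene cells (horizontal, log2 units) for 145 members; colours mark the testis calls. Most lower calls lie to the right of 0 (14 of 23 were called as rises with stage) and 8 of 10 higher calls lie among the stage falls. Spats1, which passed the testis filter only through C57BL/6J arrays, is among the 14. So is Stpg4, which needed those arrays to pass.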

How the data were processed

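The deposited table holds log2 values; GCRMA is the method named, per the submitters' processing notes. Which arrays were normalized together is not given in the sources used here. Of 16539 probe sets, 759 had no gene symbol and were left out. RefSeq's GRCm38.p6 table gave gene order, chromosomes and promoters. Columns of other samples numbered 0. The 10 sorted and 8 testis arrays were fitted separately with limma 3.58.1 (R 4.3.3; lmFit with 1 mean per group, eBayes, two-sided), with a further fit of all 18 for the difference of differences; the script was tested on simulated data. Arrays carry no read depth, and their number limits the precision. The members, lists and naming rule were chosen with earlier results of these data known. The rule names, per comparison, up to 8 largest called rises and falls without overlap, members called alike in both tissues, ends of stretches, highest medians, genes at the level limit, and list members. Promoters of the 4 members called most often were searched on both strands. Alternatives were no filter, a filter at 6, quantile normalization, centring, an intensity trend with robust prior, the replicate block and leaving out arrays.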

Additional observations from a re-analysis of the deposited data

How the results depend on the processing

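The 62 named calls gave 686 results under the alternative settings, counted per call and setting. Of these, 557 kept direction and call, 129 lost the call and 0 changed direction. Ttf+/+T43H against C57BL/10J cells had 0 called members, but 2 without the filter, 3 after quantile normalization, 4 after median centring and 6 without Ttf+/+T43H replicate 2 and t12+/+T43 replicate 3 together, a pair chosen after seeing the data. Without that pair t12+/+T43 against C57BL/10J had 13 and the stage comparison 98. In t12+/+T43 against Ttf+/+T43H testes the 7 became 2 without the filter. Same-numbered samples deviated together in some pairs and not in others (0.49, 0.04 and 0.68 between the carrier testes, 0.25, 0.02 and -0.35 between the sorted carriers). The labels do not say whether the numbers pair the samples, and these values cannot settle it. The main fits used no pairing. With a replicate block the calls numbered 1 for t12+/+T43 against C57BL/10J, 30 for t12+/+T43 against Ttf+/+T43H testes and 34 for Ttf+/+T43H against C57BL/6J. Leaving out one array gave 0 to 4 calls (t12+/+T43 against Ttf+/+T43H cells), 0 to 2 (Ttf+/+T43H against C57BL/10J), 0 to 17 (t12+/+T43 against C57BL/10J), 62 to 67 (stage), 0 to 15 (t12+/+T43 against Ttf+/+T43H testes), 3 to 15 (Ttf+/+T43H against C57BL/6J), 15 to 30 (t12+/+T43 against C57BL/6J) and 0 to 4 (difference between tissues). The first-stretch differences ranged from -0.33 to -0.22 (Ttf+/+T43H) and -0.23 to -0.19 (t12+/+T43) in cells and from -0.23 to -0.21 and -0.26 to -0.25 in testes; the t12+/+T43 cells gave -0.28 against the autosomal median. With the members' median they were -0.10, -0.055, 0.020 and 0.014; without the testis and sperm list, -0.078 in t12+/+T43 cells, and -0.17 and -0.16 in Ttf+/+T43H and t12+/+T43 testes. The causes were not tested. Groups of 2 and 3 arrays limit all calls, and values under 4 lie near background.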
